A study of Sus scrofa with 61 samples.

Results

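The mitochondrial carrier family, named SLC25, was examined in the longissimus muscle of pig fetuses at the end of gestation. Members were the array probes whose gene name, given by the array or by the gene lists of the study, began with SLC25A and a digit or was MCART6, UCP2 or UCP3. Those lists hold probes that the study called in these same data for an interaction of age and genotype or for a parental effect. The lists alone named 4 probes: those of MCART6 and SLC25A5, the brightest of SLC25A12 and the dimmer of SLC25A37. Tests of these 4 probes are not independent of the calls that named them. Counts over the genes include MCART6, SLC25A5 and SLC25A12. A probe was kept if, in any group, 80% or more of the arrays showed its spot well above background. The array held 79 such probes of 33 carrier genes, and 69 probes of 31 genes were kept, out of 10413 named genes with a kept probe. SLC25A22 and SLC25A30 had probes but none was kept, since their spots stood well above background on at most 31 and 20 of the 61 arrays. Of the 31 genes, 28 passed the filter in all 8 groups, MCART6 passed it in day 90 groups only and SLC25A25 in day 110 groups only.

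The 61 fetuses came from 4 genotypes at 90 or 110 days of gestation. LW (labelled LWLW) were purebred Large White, a breed with higher mortality at birth, and MS (labelled MSMS) were purebred Meishan, a breed with low mortality at birth. LWMS fetuses had a Large White sire and a Meishan dam, and MSLW fetuses had a Meishan sire and a Large White dam. Each genotype had 8 fetuses at day 90, and at day 110 there were 9 LW, 7 MS, 8 LWMS and 5 MSLW fetuses. All were males, and since sows received semen of both breeds, pure and crossed fetuses could share a litter. The sow of each fetus is not in the labels, so littermates counted as separate fetuses and the p-values leave out any spread between litters. The comparisons ask how carrier expression changed over the last weeks before birth, whether the breeds differed in it, and where the crosses stood.

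SLC25 proteins are carriers of the inner mitochondrial membrane that exchange metabolites between the cytosol and the matrix. Each family member has its own cargo: ADP and ATP, phosphate, carboxylates, amino acids, acylcarnitines, nucleotides, cofactors or iron. The uncoupling proteins belong to the same family and can let protons back into the matrix. In skeletal muscle the ADP/ATP and phosphate carriers serve oxidative ATP supply, and the malate and aspartate carriers bring cytosolic reducing equivalents to the respiratory chain.

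Values are log2 signals of 1-colour arrays after quantile normalization, and a difference of 1 is a doubling. Each gene is described by its brightest kept probe, and levels are compared between groups of fetuses, never between probes. Differences come from a limma model over the 8 groups, with two-sided p-values adjusted over all 42436 kept probes, and a gene is called when the adjusted p is below 1%. The arrays had 34347 to 45684 spots well above background, and no carrier spot was saturated. The 10 skeletal muscle markers, with mean log2 signals of 16.16 to 16.87 over the list, were bright in every fetus. With age 6 of them rose in LW and in MS and 7 in each cross, while 1 fell in each genotype, with list medians of 0.25 to 0.27. Of the 5 endothelial markers 3 fell and 1 rose in each genotype, with medians of -1.14 to -0.82. All 6 fibroblast and matrix markers fell in each genotype, and the mean log2 signal of the list ranged over 14.21 to 14.53 at day 90 and 13.02 to 13.51 at day 110 in LW, 14.32 to 14.57 and 12.29 to 12.61 in MS, 14.23 to 14.48 and 12.58 to 13.34 in LWMS, and 14.15 to 14.60 and 12.79 to 13.42 in MSLW. Of the 6 cell division markers 5 fell and 1, MKI67, rose in each genotype, and their mean log2 signal ranged over 10.39 to 10.55 at day 90 and 7.33 to 8.72 at day 110 in LW, 10.34 to 10.65 and 6.87 to 8.26 in MS, 10.17 to 10.74 and 7.29 to 7.98 in LWMS, and 10.34 to 10.72 and 7.57 to 9.17 in MSLW. In bulk tissue fewer cells of a type and less RNA per cell cannot be told apart, and the part of these marker shifts in the carrier results was not tested.

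More carriers rose than fell between day 90 and day 110. In MS fetuses 19 of the 31 genes rose, where 30.2% of all named genes did, and 8 fell, where 31.6% did. In LW fetuses 15 rose beside a background of 23.3%, and 5 fell beside 26.6%. LWMS fetuses had 17 rises beside 25.5% and 7 falls beside 30.1%, and MSLW fetuses had 16 rises beside 22.3% and 5 falls beside 27.5%. The median age change over the 31 genes was 0.61 in MS, 0.48 in LWMS, 0.37 in MSLW and 0.32 in LW, where the median over all kept probes was 0.03, 0.04, 0.02 and 0.03. With each array scaled to its 75th percentile instead, the counts of rises and falls were 15 and 3 in LW, 19 and 7 in MS, 17 and 6 in LWMS, and 15 and 4 in MSLW, and the median over all kept probes moved to 0.13 in MS and at most 0.10 in the others. Day 90 and day 110 fetuses did not overlap for 19 of the 31 genes in MS, beside 43.6% of named genes, 16 in LWMS, beside 36.3%, 15 in MSLW, beside 32.4%, and 13 in LW, beside 27.5%. These counts without overlap include MCART6 in MS and LWMS and SLC25A25 in LW and MSLW. Both genes passed the filter at 1 age only and therefore had to differ. Without MCART6 and SLC25A25, 14 genes rose and 4 fell in LW, and 18 and 7 in MS. In LWMS 16 then rose and 6 fell, and in MSLW 15 and 4.

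**Figure D1:**
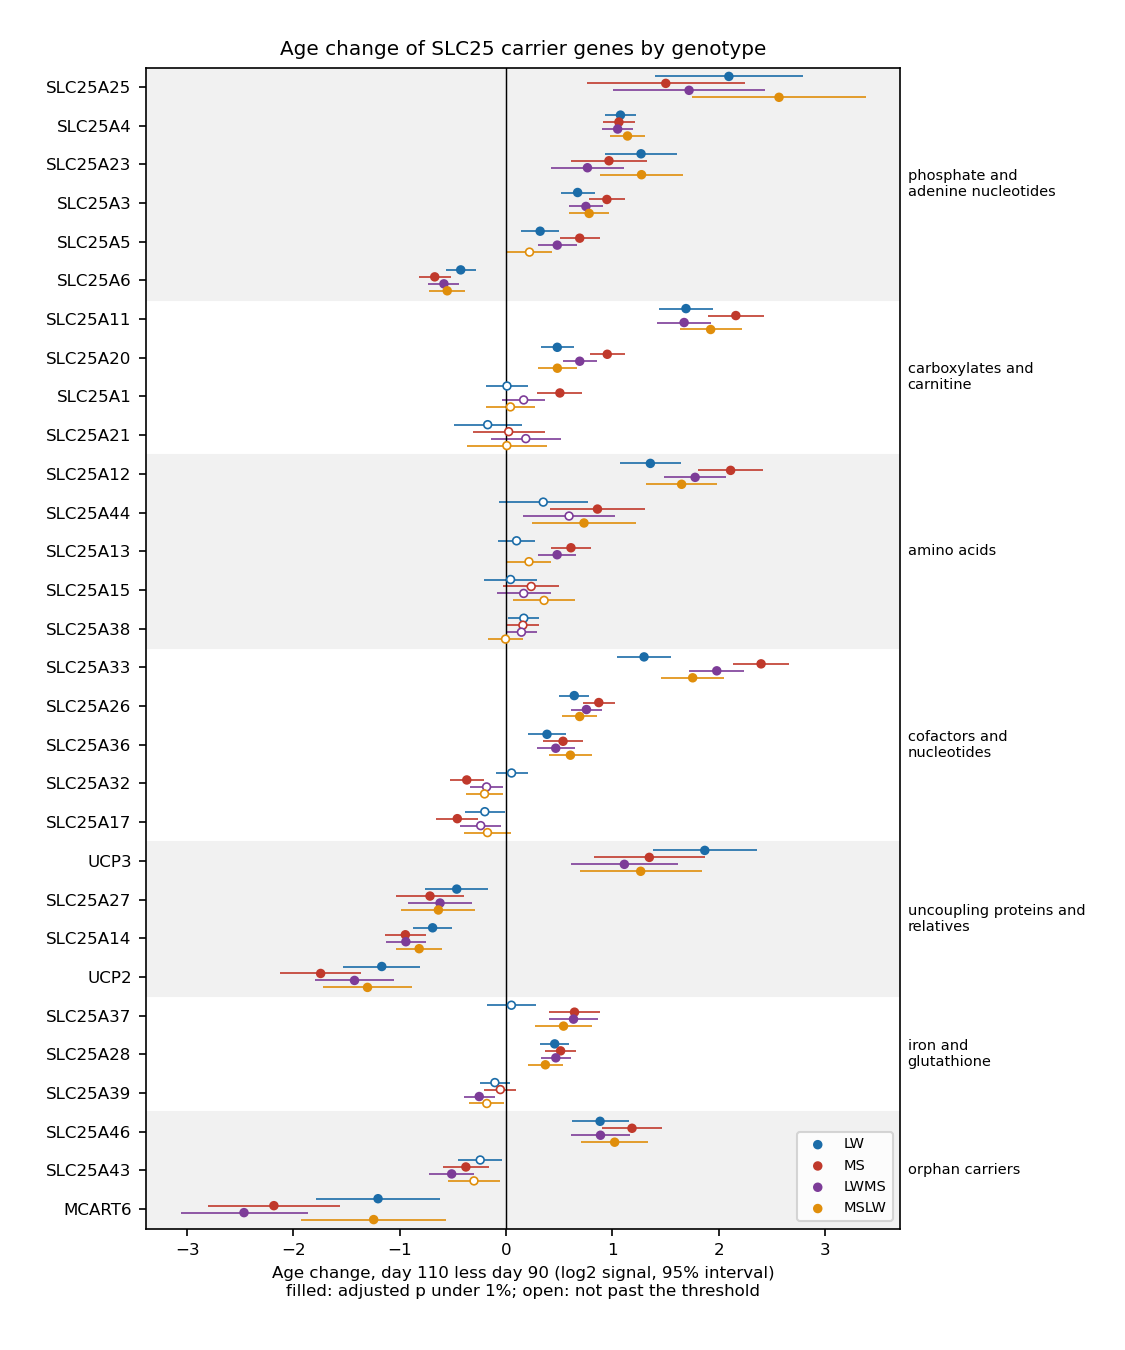
Age change of 30 carrier genes (rows), as day 110 less day 90 in log2 signal on the horizontal axis, with 95% intervals, for each of the 4 genotypes; filled points passed an adjusted p of 1%. Among genes that passed the filter at both ages, the largest mean rises over the genotypes were those of SLC25A11 (1.86) and SLC25A33 (1.86), and the largest mean falls those of UCP2 (-1.41) and SLC25A14 (-0.85). SLC25A25 and MCART6 passed it at 1 age only, and their points are a description.

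Of the 6 phosphate and adenine nucleotide carriers, SLC25A3, SLC25A4, SLC25A5 and SLC25A23 rose in both LW and MS fetuses. Among all named genes 23.3% rose in LW and 30.2% in MS. SLC25A6 fell in both, with the limits given below. SLC25A25 passed the filter at 1 age only and is described without a test. SLC25A4 is ADP/ATP carrier 1, the heart and muscle isoform, and SLC25A6 is ADP/ATP carrier 3, the widely expressed isoform. Their probes read different stretches of sequence, and probes of different ADP/ATP carriers shared runs of at most 7 bases. The sequences below are those of the brightest probes, whole for SLC25A4 and the first 30 bases for SLC25A6, and are shown because the isoforms are close relatives.
SLC25A4 probe A_72_P113671: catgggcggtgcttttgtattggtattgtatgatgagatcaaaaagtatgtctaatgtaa
SLC25A6 probe A_72_P165521, bases 1 to 30: tttgcgattgtgttctatgtcgggcattct

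At day 90 the lowest, median and highest log2 signals of SLC25A4 were 16.14, 16.66 and 16.78 in LW, 16.63, 16.80 and 16.99 in MS, 16.61, 16.81 and 17.19 in LWMS and 16.44, 16.71 and 16.92 in MSLW fetuses. At day 110 they were 17.46, 17.70 and 17.87 in LW, 17.65, 17.93 and 17.97 in MS and 17.73, 17.90 and 17.96 in LWMS, and the 5 MSLW fetuses had 17.70, 17.86, 17.87, 17.88 and 17.88. Every day 110 fetus stood above every day 90 fetus of its genotype. The age change was 1.08 (SE 0.0711, adjusted p = 1.23e-19) in LW and 1.06 (SE 0.0757, adjusted p = 1.5e-18) in MS, a 2.11-fold and a 2.09-fold rise, and 1.05 and 1.14 in LWMS and MSLW. The difference between the MS and LW age changes was -0.01 (SE 0.104, adjusted p = 0.951), with a 95% interval of -0.22 to 0.19. The size of the rise depended on the scaling. With each array scaled to its 75th percentile the SLC25A4 change was 1.37 in LW and 1.80 in MS, the MS change exceeded that of LW by 0.44 (adjusted p = 0.0316, not called), and the MS less LW difference at day 110 was 0.52 (adjusted p = 5.19e-05), against 0.18 after quantile normalization.

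SLC25A6 went the other way after quantile normalization. At day 90 its lowest, median and highest log2 signals were 17.55, 17.65 and 17.81 in LW, 17.43, 17.56 and 17.68 in MS, 17.60, 17.71 and 17.82 in LWMS and 17.21, 17.56 and 17.69 in the 7 MSLW fetuses with a usable spot, 1 spot having been left out as non-uniform. The same values at day 110 were 16.86, 17.32 and 17.51 in LW, 16.80, 16.92 and 17.00 in MS and 16.88, 17.16 and 17.31 in LWMS, and 16.76, 16.90, 16.94, 17.03 and 17.25 in the 5 MSLW fetuses. The ages overlapped in MSLW alone. SLC25A6 fell by 0.43 (SE 0.0703, adjusted p = 6.51e-07) in LW, by 0.67 (SE 0.0749, adjusted p = 1.85e-11) in MS, by 0.58 in LWMS and by 0.55 in MSLW, and its other 6 probes had age changes of -0.77 to -0.38. This fall depended on the processing. With each array scaled to its 75th percentile, the age changes were 0.08 in MS, -0.16 in LW and -0.03 in each of the crosses, and none was called. With non-uniform spots kept, the SLC25A6 changes were -0.67 in MS, -0.58 in LWMS, -0.43 in LW and 0.08 in MSLW, and none was called (adjusted p = 0.0751 to 0.874). The rise of SLC25A4 was called under both scalings. The log2 ratio of the SLC25A4 to the SLC25A6 signal on the same array, a pair set side by side after their values were seen and given as a description, shifted with age by 1.50 (SE 0.11) in LW, 1.73 (SE 0.0878) in MS, 1.63 (SE 0.0942) in LWMS and 1.73 (SE 0.119) in MSLW, with no overlap between the ages in any genotype. Such a ratio shows an unequal change of the pair and not which of them moved.

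SLC25A5, ADP/ATP carrier 2, the isoform of dividing cells, rose by 0.32 (SE 0.0883, adjusted p = 0.00159) in LW, 0.69 (SE 0.0941, adjusted p = 4.23e-09) in MS and 0.48 (SE 0.0909, adjusted p = 6.97e-06) in LWMS, and its change in MSLW was 0.22 (SE 0.104, adjusted p = 0.0652). The SLC25A5 probe was named only by the study's lists of called probes. Its rise stood beside a fall of 5 of the 6 cell division markers. SLC25A3, the phosphate carrier, rose by 0.67, 0.95, 0.75 and 0.78 in LW, MS, LWMS and MSLW. With 75th percentile scaling the SLC25A3 rises were larger, at 1.02, 1.70, 1.30 and 1.33 in the same order, and its MS less LW difference at day 110 was 0.66, against 0.32 after quantile normalization. All 11 of its kept probes rose in LW, by 0.66 to 0.82, and in MS, by 0.95 to 1.37. All 5 subunits of the F1 part of ATP synthase, the enzyme that uses the imported ADP and phosphate, rose in each genotype, with a median of 0.92 in LW and 1.17 in MS.

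The calcium-dependent ATP-Mg/phosphate carriers adjust the adenine nucleotide pool of the matrix. SLC25A25 was dim. At day 90 its lowest, median and highest log2 signals were 1.60, 2.89 and 3.73 in LW and 2.41, 3.88 and 4.66 in MS, and it stood well above background in 2 and 5 of 8 fetuses. For day 110 fetuses they were 4.15, 4.89 and 5.72 in LW and 4.44, 5.29 and 5.79 in MS, well above background in all 9 and all 7. The crosses had 1.60, 3.58 and 4.60 in LWMS and 1.64, 3.05 and 3.74 in MSLW at day 90, and 4.56, 4.82 and 6.44 in LWMS and 5.03, 5.13, 5.41, 5.47 and 5.79 in the 5 MSLW fetuses at day 110. The ages did not overlap in LW and MSLW and overlapped in MS and LWMS. SLC25A25 passed the filter through its day 110 groups alone and so had to differ between the ages. No test is given for it. The mean log2 signals at day 90 and day 110 were 2.77 and 4.87 in LW, 3.74 and 5.25 in MS, 3.43 and 5.16 in LWMS, and 2.80 and 5.37 in MSLW. The LW difference ran from 0.47 with normexp to 2.32 over the settings tried.

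SLC25A23, a close relative, had lowest, median and highest log2 signals of 5.16, 5.59 and 5.80 in LW and 5.29, 6.05 and 6.27 in MS at day 90, and 6.34, 6.71 and 7.54 in LW and 6.38, 6.90 and 7.58 in MS at day 110, with no overlap of the ages in LW or MS. In LWMS the ages overlapped, with day 90 fetuses up to 6.52 and day 110 fetuses from 6.12. It rose by 1.27 (SE 0.168, adjusted p = 3e-09) in LW and 0.97 (SE 0.179, adjusted p = 4.16e-06) in MS, and by 0.77 and 1.28 in LWMS and MSLW. With normexp the SLC25A23 rises were 0.72 in LW and 0.56 in MS. The second kept probe of SLC25A23 had age changes of -0.43 to -0.21 and none was called, so the rise belongs to 1 of 2 probes.

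The carriers of the malate-aspartate shuttle, which moves reducing equivalents from cytosolic NADH into mitochondria, were among those that rose most. SLC25A11 exchanges malate for 2-oxoglutarate, and SLC25A12, the muscle and brain isoform aralar, exports aspartate for glutamate. SLC25A11 had a single kept probe, printed here whole because the changes of this gene rest on it alone.
SLC25A11 probe O13141: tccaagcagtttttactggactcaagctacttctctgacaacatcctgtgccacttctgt

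At day 90 the lowest, median and highest log2 signals of SLC25A11 were 9.56, 9.79 and 10.20 in LW, 9.79, 9.88 and 10.19 in MS, 9.73, 10.002 and 10.35 in LWMS and 9.54, 10.03 and 10.34 in MSLW fetuses. They were 10.82, 11.67 and 12.29 in LW, 11.86, 12.07 and 12.41 in MS and 11.28, 11.72 and 11.93 in LWMS at day 110, and the 5 MSLW fetuses had 11.49, 11.90, 11.94, 11.95 and 12.34. No genotype had an overlap between the ages. SLC25A11 rose 3.23-fold in LW, by 1.69 (SE 0.125, adjusted p = 9.13e-18) on the log2 scale, and 4.48-fold in MS, by 2.16 (SE 0.133, adjusted p = 3.3e-21). The rise was 1.68 in LWMS and 1.93 in MSLW, and the MS age change exceeded that of LW by 0.47 (SE 0.182, adjusted p = 0.0738), which did not pass the threshold.

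SLC25A12 had lowest, median and highest log2 signals of 6.26, 6.61 and 6.96 in LW, 6.33, 6.62 and 6.93 in MS, 6.22, 6.63 and 7.77 in LWMS and 6.40, 6.73 and 6.95 in MSLW fetuses at day 90. Among day 110 fetuses they were 7.20, 7.94 and 8.70 in LW, 8.53, 8.71 and 9.01 in MS and 8.29, 8.54 and 8.71 in LWMS, and 7.86, 8.24, 8.53, 8.56 and 8.61 in the 5 MSLW fetuses. The ages did not overlap in any genotype. The rise was 1.36 (SE 0.142, adjusted p = 3.06e-12) in LW and 2.11 (SE 0.152, adjusted p = 1.9e-18) in MS, and 1.78 and 1.65 in LWMS and MSLW. The MS age change exceeded that of LW by 0.76 (SE 0.208, adjusted p = 0.0102), just outside the threshold. This probe of SLC25A12 was named only by the study's lists of called probes, so its tests are not independent of those calls.

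SLC25A13, citrin, is the aspartate/glutamate carrier of liver. At day 90 its lowest, median and highest log2 signals were 6.86, 6.99 and 7.12 in LW and 6.67, 6.87 and 7.06 in MS, and at day 110 6.78, 7.12 and 7.46 in LW and 7.34, 7.43 and 7.88 in MS. The ages overlapped in LW and did not in MS. SLC25A13 rose in MS, by 0.61 (SE 0.0936, adjusted p = 8.57e-08), and in LWMS, by 0.48 (SE 0.0904, adjusted p = 6.6e-06), while the change was 0.10 (SE 0.0879, adjusted p = 0.35) in LW and 0.22 (SE 0.103, adjusted p = 0.0701) in MSLW. The shift of SLC25A12 against SLC25A13 on the same array was 1.26 (SE 0.17) in LW and 1.50 (SE 0.113) in MS, a pair again set side by side after seeing the values. The 4 enzymes of the shuttle, GOT1, GOT2, MDH1 and MDH2, all rose in each genotype, by 1.38 to 2.21 in LW and by 1.58 to 2.46 in MS.

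SLC25A20 carries acylcarnitines into the matrix for fatty acid oxidation. At day 90 its lowest, median and highest log2 signals were 11.35, 11.48 and 11.70 in LW, 11.37, 11.53 and 11.65 in MS, 11.34, 11.46 and 11.50 in LWMS and 11.63, 11.68 and 11.91 in MSLW fetuses. At day 110 they were 11.55, 12.11 and 12.31 in LW, 12.30, 12.48 and 12.61 in MS and 11.91, 12.13 and 12.34 in LWMS, and 11.91, 12.07, 12.23, 12.31 and 12.41 in the 5 MSLW fetuses. The ages overlapped in LW only. SLC25A20 rose by 0.48 (SE 0.0775, adjusted p = 3.46e-07) in LW, 0.95 (SE 0.0825, adjusted p = 2.77e-15) in MS, 0.69 in LWMS and 0.48 in MSLW. Of the 4 carnitine system enzymes, CPT1B, the muscle isoform of the first enzyme of the system, CPT2 and CRAT rose in each genotype, by 1.79, 1.58 and 1.03 in LW and by 2.32, 2.11 and 1.52 in MS. CPT1A, the liver isoform, had changes of -0.36 and 0.04 and was not called. The citrate carrier SLC25A1 rose in MS, by 0.51 (SE 0.105, adjusted p = 3.21e-05), and had changes of 0.01, 0.17 and 0.04 elsewhere. The oxodicarboxylate carrier SLC25A21 was called in no genotype, with age changes of -0.17 to 0.19.

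Among the 6 cofactor and nucleotide carriers, SLC25A33, pyrimidine nucleotide carrier 1, which supplies the matrix with pyrimidine nucleotides, changed most with age. At day 90 its lowest, median and highest log2 signals were 7.97, 8.05 and 8.26 in LW, 7.45, 7.80 and 8.12 in MS, 7.70, 8.08 and 8.49 in LWMS and 7.60, 7.95 and 8.27 in MSLW fetuses. They were 9.03, 9.42 and 9.73 in LW, 9.56, 10.12 and 10.94 in MS and 9.66, 10.20 and 10.38 in LWMS at day 110, and 9.22, 9.60, 9.70, 9.95 and 9.97 in the 5 MSLW fetuses. The ages did not overlap in any genotype. SLC25A33 rose 2.46-fold in LW, by 1.30 (SE 0.125, adjusted p = 1.93e-13), and 5.28-fold in MS, by 2.40 (SE 0.133, adjusted p = 5.24e-23), with 1.98 in LWMS and 1.76 in MSLW. SLC25A36, pyrimidine nucleotide carrier 2, rose by 0.39, 0.54, 0.47 and 0.61 in LW, MS, LWMS and MSLW. SLC25A26, which imports the methyl donor S-adenosylmethionine, rose by 0.64, 0.87, 0.76 and 0.69 in LW, MS, LWMS and MSLW.

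Another pair of this group fell in MS. SLC25A32, the folate and FAD carrier, had lowest, median and highest log2 signals of 7.73, 7.94 and 8.07 in LW and 7.84, 8.07 and 8.28 in MS at day 90 and of 7.70, 7.93 and 8.26 in LW and 7.58, 7.71 and 7.84 in MS at day 110. The ages overlapped in LW and did not overlap in MS. SLC25A32 fell in MS by 0.37 (SE 0.0798, adjusted p = 5.94e-05), and its change was 0.05 (SE 0.0749, adjusted p = 0.579) in LW. The second SLC25A32 probe changed by -0.08 in MS and 0.27 in LW, neither called. SLC25A17, a carrier of peroxisomes and not of mitochondria, fell in MS by 0.46 (SE 0.0992, adjusted p = 6.15e-05), with an overlap between the ages. The second SLC25A17 probe changed by -0.21 in MS and was not called.

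The uncoupling proteins moved apart. UCP3 is the muscle isoform, and UCP2 is found in many tissues, immune cells among them. In the pig gene table of the Sscrofa11.1 assembly the 2 genes are direct neighbours among protein-coding genes. UCP3 had 3 kept probes and UCP2 had 2. They are shown because the probes of a gene differed in the size of the change. The UCP2 probes overlap by 22 bases, given in capitals, and for A_72_P146406, A_72_P165336 and O6507 only 30 of the 60 bases are given.
UCP3 probe A_72_P146406, bases 1 to 30: atttggggaaaaggattatgactcaataaa
UCP3 probe A_72_P443167: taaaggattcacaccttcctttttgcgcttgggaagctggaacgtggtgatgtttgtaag
UCP3 probe O7852: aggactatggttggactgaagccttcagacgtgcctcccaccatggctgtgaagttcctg
UCP2 probe A_72_P165336, bases 1 to 30: ATCAGCCAGGATCTCAAGTCCTccgtcctt
UCP2 probe O6507, bases 31 to 60: agcctggcATCAGCCAGGATCTCAAGTCCT

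At day 90 the lowest, median and highest log2 signals of UCP3 were 9.67, 10.74 and 11.57 in LW, 12.21, 12.45 and 12.62 in MS, 11.45, 11.84 and 12.77 in LWMS and 10.82, 11.78 and 12.28 in MSLW fetuses. For day 110 fetuses they were 11.47, 12.53 and 13.51 in LW, 13.01, 13.91 and 14.24 in MS and 12.30, 13.18 and 13.74 in LWMS, and 11.99, 12.63, 13.00, 13.35 and 13.51 in the 5 MSLW fetuses. Fetuses spread over more than 1 log2 unit in most groups, the 8 MS fetuses of day 90 lay close together, and the ages were separate in MS only. UCP3 rose by 1.87 (SE 0.244, adjusted p = 2.08e-09) in LW, 1.35 (SE 0.26, adjusted p = 9e-06) in MS, 1.11 (SE 0.251, adjusted p = 0.000121) in LWMS and 1.27 (SE 0.286, adjusted p = 0.000151) in MSLW. The other probes rose too, by 1.46 to 2.09 for A_72_P443167 and by 0.49 to 1.16 for O7852 over the 4 genotypes.

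UCP2 fell in every genotype. Its lowest, median and highest log2 signals at day 90 were 11.27, 11.85 and 12.08 in LW, 10.68, 10.96 and 11.81 in MS, 11.21, 11.31 and 11.81 in LWMS and 10.59, 11.60 and 11.98 in MSLW fetuses. Among day 110 fetuses they were 10.04, 10.82 and 10.98 in LW, 8.51, 9.33 and 9.81 in MS and 9.53, 9.86 and 10.71 in LWMS, and 9.87, 9.95, 10.17, 10.45 and 10.83 in the 5 MSLW fetuses. The ages overlapped in MSLW only, through 1 day 90 fetus at 10.59. UCP2 fell by 1.17 (SE 0.18, adjusted p = 1.32e-07) in LW, by 1.74 (SE 0.192, adjusted p = 9.42e-12) in MS, by 1.43 in LWMS and by 1.30 in MSLW. Of the 6 macrophage and leukocyte markers 3 fell in LW and 2 in each other genotype, and the mean log2 signal of the list ranged over 8.53 to 8.96 at day 90 and 8.06 to 8.94 at day 110 in LW, 8.62 to 8.87 and 8.20 to 8.70 in MS, 8.62 to 8.87 and 8.26 to 8.57 in LWMS, and 8.56 to 9.13 and 8.14 to 8.39 in MSLW. Their part in the UCP2 fall was not tested. Among fetuses of a group, UCP2 and the mean of that list had a correlation of -0.0027 over the 61 fetuses, given as a description. SLC25A14 and SLC25A27, relatives of the uncoupling proteins known from brain, also fell, SLC25A14 by 0.69 to 0.95 and SLC25A27 by 0.46 to 0.72 over the genotypes. In LW the second SLC25A27 probe changed by -0.32 and was not called. With 75th percentile scaling the LW change of the brightest SLC25A27 probe was -0.38 and not called (adjusted p = 0.0181).

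The iron and glutathione carriers and the remaining amino acid carriers had age changes of at most 0.86 in size. SLC25A37, mitoferrin 1, which imports iron for haem synthesis and is best known from red cell precursors, rose in MS by 0.64 (SE 0.121, adjusted p = 5.84e-06), in LWMS by 0.64 and in MSLW by 0.54, and its change was 0.05 (SE 0.114, adjusted p = 0.732) in LW. The 7 measured of 12 erythroid markers had 1 rise and 2 falls in LW and 1 rise and 3 falls in MS. SLC25A28, mitoferrin 2, rose by 0.37 to 0.51 over the genotypes, and all 6 measured of the 9 listed genes of haem and iron-sulphur synthesis rose in each genotype. SLC25A39, the glutathione carrier, fell in LWMS by 0.25 (SE 0.0722, adjusted p = 0.00215) and was not called elsewhere. With 75th percentile scaling the LWMS change of SLC25A39 was -0.08 and not called (adjusted p = 0.388). The ornithine carrier SLC25A15 and the glycine carrier SLC25A38 were called in no genotype, with age changes of 0.04 to 0.36 and 0.00 to 0.17. SLC25A44, the branched-chain amino acid carrier, rose in MS by 0.86 (SE 0.223, adjusted p = 0.000668) and in MSLW by 0.73 (SE 0.246, adjusted p = 0.00951). The MSLW call was lost without any of 4 of the 5 day 110 MSLW fetuses. It was also lost with normexp (0.27, adjusted p = 0.0238), with 75th percentile scaling (adjusted p = 0.0154) and without a filter (adjusted p = 0.0139).

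The last 3 genes differed in direction. SLC25A46 is a family member of the outer membrane tied to mitochondrial shape, and its lowest, median and highest log2 signals were 6.66, 7.11 and 7.28 in LW and 6.90, 7.14 and 7.78 in MS at day 90 and 7.54, 7.98 and 8.20 in LW and 8.15, 8.49 and 8.69 in MS at day 110. It rose by 0.89, 1.19, 0.89 and 1.02 in LW, MS, LWMS and MSLW, with no overlap of the ages in any of them. SLC25A43, whose cargo is unknown, fell in MS by 0.38 and in LWMS by 0.51, while A_72_P765803, 1 of its 3 kept probes, had changes of 0.16 in MS and 0.25 in LWMS that were not called. With the mean of its probes neither SLC25A43 fall was called (adjusted p = 0.0319 and 0.0451). MCART6 was dim, and its lowest, median and highest log2 signals were 4.09, 4.54 and 4.91 in LW, 5.41, 5.76 and 6.07 in MS, 4.91, 5.80 and 6.34 in LWMS and 3.46, 4.43 and 5.16 in MSLW fetuses at day 90. At day 110 they were 1.78, 3.34 and 4.94 in LW, 2.81, 3.33 and 4.46 in MS and 1.83, 3.74 and 4.14 in LWMS, and 2.29, 3.03, 3.25, 3.48 and 3.77 in the 5 MSLW fetuses. MCART6 was not well above background in any of the 9 LW or 5 MSLW fetuses of day 110, and in 1 of 7 MS and 1 of 8 LWMS fetuses it was. Each of those day 110 arrays was given the larger of its MCART6 signal and its lowest signal well above background. Against the mean of these values, the day 90 mean of MCART6 was 1.32-fold higher in LW and 1.57-fold higher in MSLW. These folds belong to the main processing and are not lower limits. Among the settings tried, the age change of MCART6 nearest to no change was -0.21 for LW fetuses and -0.27 for MSLW fetuses. The mean log2 signals at day 90 and day 110 were 5.73 and 3.54 in MS and 5.73 and 3.26 in LWMS, and with normexp both differences were -0.63. MCART6 passed the filter through its day 90 groups alone and so had to differ between the ages, and no test is given.

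**Figure D2:**
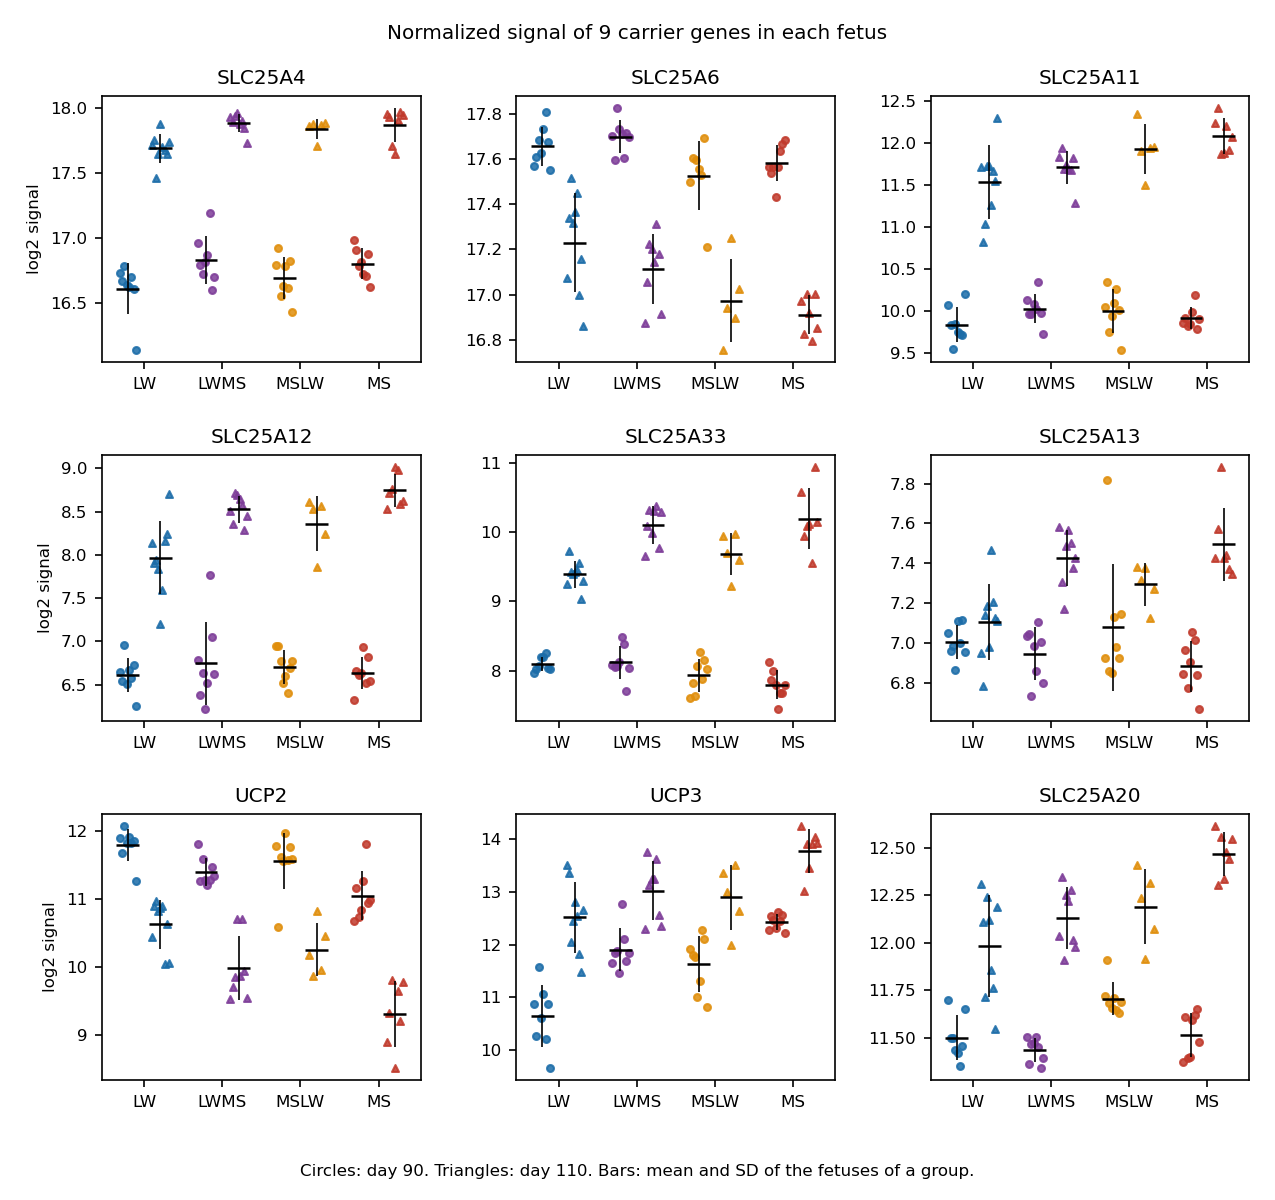
Normalized log2 signal (vertical axes) of 9 carrier genes in each fetus, by genotype, with circles for day 90, triangles for day 110, and bars for the mean and SD of a group. SLC25A4, SLC25A11, SLC25A12 and SLC25A33 show no overlap between the ages in any genotype, and UCP2 and UCP3 move in opposite directions.

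More carriers differed between the breeds at day 110 than at day 90. At day 90, 3 of 31 genes were higher in MS than in LW and 2 were lower, beside a background of 6.66% of named genes in each direction. At day 110, 13 genes were higher in MS, beside 14.7%, and 5 were lower, beside 17.9%. The median difference over the 31 genes was 0.02 at day 90 and 0.29 at day 110, and over all kept probes 0.00 and 0.01. The breeds did not overlap for 4 of the 31 genes at day 90, beside 7.2% of named genes, and for 5 at day 110, beside 10.1%. With 75th percentile scaling, 14 genes were higher and 4 lower at day 110. Among the genes higher in MS at day 110 were SLC25A1, SLC25A3, SLC25A5, SLC25A11, SLC25A12, SLC25A13, SLC25A20, SLC25A33, SLC25A36, SLC25A37, SLC25A46 and UCP3. The lower ones were SLC25A6, SLC25A14, SLC25A17, SLC25A32 and UCP2, and the difference of SLC25A6 was 0.04 and not called with 75th percentile scaling and was not called with non-uniform spots kept (adjusted p = 0.467). SLC25A32 was not called with the mean of its probes (adjusted p = 0.0572). Beside these, 5 of the 6 fibroblast and matrix markers and 4 of the 6 cell division markers were lower in MS at day 110, and none of either list differed at day 90. The part of those markers in the breed differences was not tested.

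**Figure D3:**
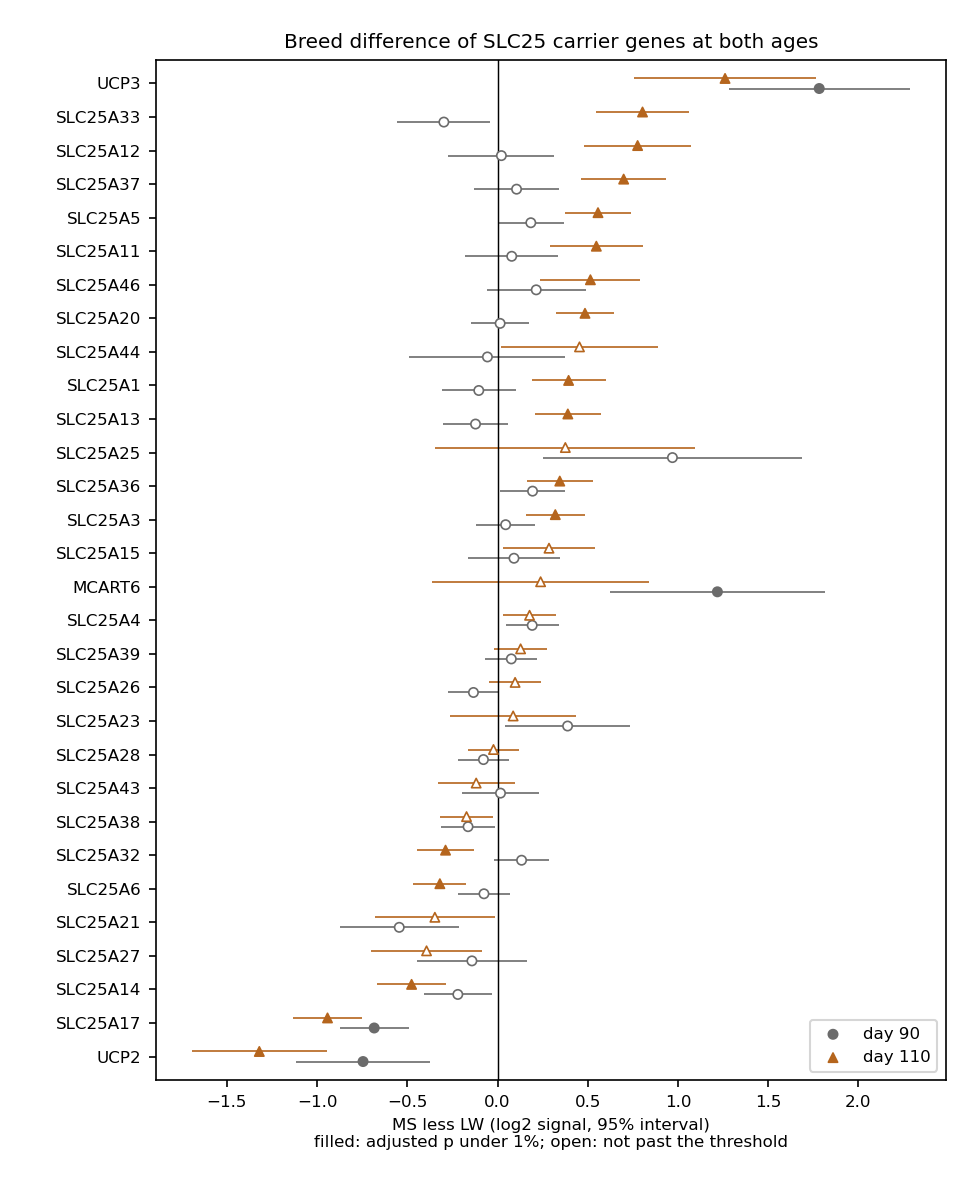
MS less LW difference of 30 carrier genes (rows) in log2 signal with 95% intervals on the horizontal axis, at day 90 and at day 110; filled points passed an adjusted p of 1%. At day 110, 12 of the genes shown stand above 0 and 5 below it among the filled points, against 2 and 2 at day 90.

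Among the genes called at both ages were UCP3, higher in MS, and UCP2 and SLC25A17, lower in MS. UCP3 was higher in MS by 1.78 (SE 0.251, adjusted p = 1.51e-07) at day 90, with no overlap between the breeds. By day 110 the difference was 1.26 (SE 0.253, adjusted p = 5.46e-05), with an overlap. UCP2 was 1.68-fold lower in MS at day 90, with a log2 difference of -0.75 (SE 0.185, adjusted p = 0.00194), and 2.5-fold lower at day 110, with -1.32 (SE 0.187, adjusted p = 7.04e-08) and no overlap between the breeds. SLC25A17 had lowest, median and highest log2 signals of 9.02, 9.34 and 9.47 in LW and 8.34, 8.57 and 8.90 in MS at day 90 and of 8.69, 9.08 and 9.44 in LW and 7.88, 8.19 and 8.41 in MS at day 110. Its MS fetuses were all below the LW fetuses at each age, by 0.68 at day 90 and 0.94 at day 110 (adjusted p = 1.4e-07 and 1.2e-11). MCART6 was called at day 90 only, higher in MS by 1.22 (SE 0.298, adjusted p = 0.00166), on a probe named only by the study's lists of called probes. At day 110, where it was not well above background in any LW fetus, no fold is given.

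Whether the age change itself differed between the breeds was tested directly. The test called 4 of the 31 genes, beside 9.07% of named genes, and the median difference over the 31 was 0.15, beside 0.00 over all kept probes. SLC25A33 rose more in MS, by 1.101 (SE 0.183, adjusted p = 3.46e-05), and so did SLC25A13, by 0.51 (SE 0.128, adjusted p = 0.0048), and SLC25A20, by 0.47 (SE 0.113, adjusted p = 0.00329). The change of SLC25A32 was lower in MS than in LW, with a difference of -0.42 (SE 0.109, adjusted p = 0.00636). The SLC25A32 call was lost in 4 of 16 alternatives (adjusted p = 0.0104 to 0.0498), and its second probe had a difference of -0.34, not called. None of these 4 genes differed between the breeds at day 90, where the differences were -0.30, -0.12, 0.01 and 0.13. The same values at day 110 were 0.80, 0.39, 0.48 and -0.29, all called. SLC25A12 and SLC25A37 had differences of 0.76 and 0.59 with adjusted p of 0.0102 and 0.0115. The SLC25A12 probe was named only by the study's lists of called probes, so its test is not independent of those calls. With 75th percentile scaling the count was 9, of which 8 were higher in MS, against 3 of 4 after quantile normalization. The share of named genes called was then 10.3%, and the median over all kept probes 0.07.

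Among the enzymes these carriers serve, all 4 of the malate-aspartate shuttle, 3 of 4 of the carnitine system and 4 of 5 F1 subunits of ATP synthase were higher in MS at day 110, with list medians of 0.65, 0.75 and 0.26. At day 90 the counts were 2 of 4, 0 of 4 and 0 of 5. Of the mitochondrial import proteins that insert carriers into the membrane, 5 of 6 measured rose with age in LW and in MS, and at day 110 1 was higher and 1 lower in MS. The outer membrane pores and the pyruvate carrier subunit BRP44, 4 genes measured of 5, all rose with age in each genotype.

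For UCP2, UCP3 and SLC25A17, in which the breeds differed at both ages, the mean of each cross lay between those of LW and MS at both ages. The reciprocal crosses, with the same parental breeds and opposite dams, were compared at each age as LWMS less MSLW. The study points out that these male fetuses took their X chromosome from the dam. The crosses thus also differ in the breed of the X chromosome. Which of the genes below lie on the X chromosome is not given here, and its part in their differences was not tested. At day 90 the only call was MCART6, higher in LWMS by 1.32 (SE 0.298, adjusted p = 0.00916), beside 0.461% of named genes called. The LWMS fetuses, with Meishan dams, had a mean of 5.73 and the MSLW fetuses one of 4.41, close to the means of the MS (5.73) and LW (4.51) fetuses. With normexp the difference was 0.43. The call sat at the threshold, on a probe named only by the study's lists of called probes. It was lost when all probes were tested (adjusted p = 0.0140), and without day 110 MSLW fetus 3 (0.0103) or 5 (0.0102) or day 90 MS fetus 3 (0.0102), whose removal leaves the difference itself as it was. At day 110 no carrier was called, beside 1.3% of named genes, and 3 had an unadjusted p below 0.05. Of these SLC25A5 had a difference of 0.39 (SE 0.104, adjusted p = 0.0268), SLC25A33 one of 0.41 (SE 0.147, adjusted p = 0.124) and SLC25A39 one of -0.18 (SE 0.0823, adjusted p = 0.278). The SLC25A5 probe, like that of MCART6, was named only by the study's lists of called probes.

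The mean of both crosses was also compared with the mid-parent value, the mean of LW and MS. No carrier was called at day 90, beside 0.048% of named genes, with none at an unadjusted p below 0.05, or at day 110, beside 0.0768%, with 1. That gene was SLC25A17, with a difference of 0.15 (SE 0.0729, adjusted p = 0.709). Over the 31 genes the differences from the mid-parent value ran from -0.14 to 0.23 at day 90 and from -0.21 to 0.20 at day 110. For UCP2 at day 110 the crosses differed from it by 0.15, with a 95% interval of -0.13 to 0.43, and for UCP3 by -0.19, with an interval of -0.57 to 0.19.

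**Figure D4:**
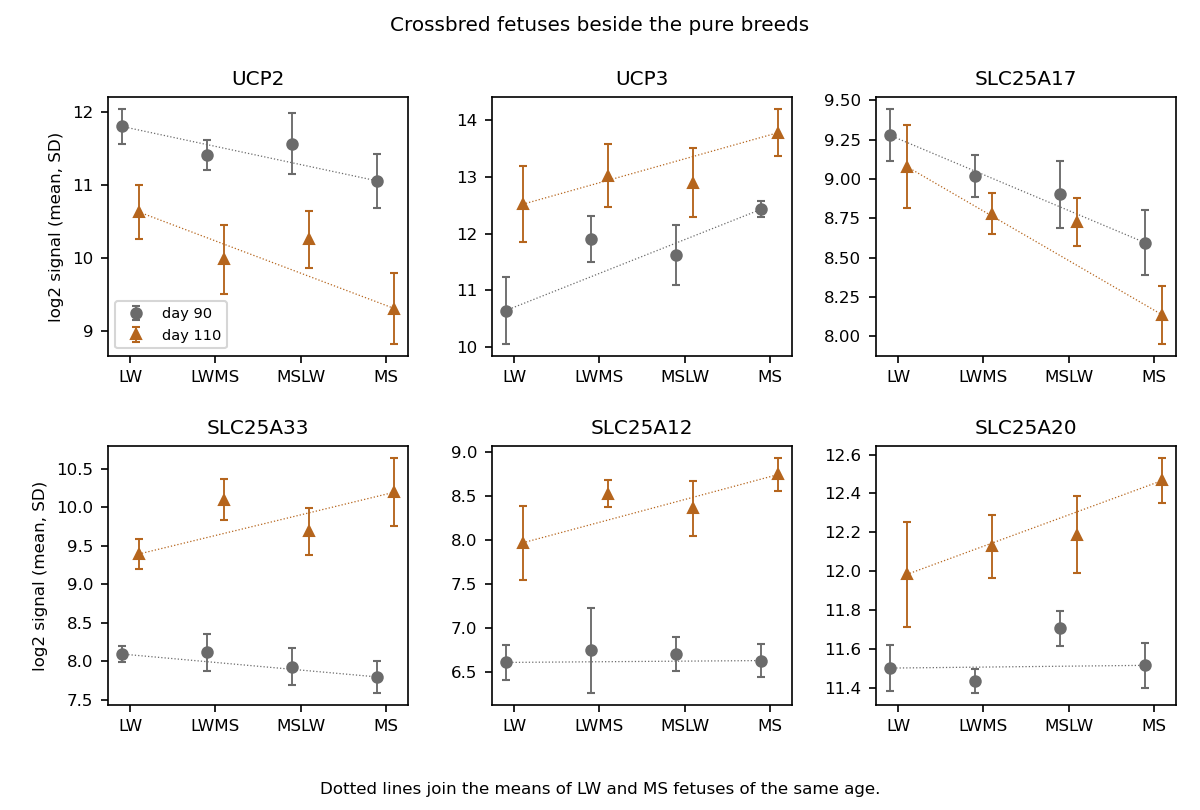
Mean and SD of the log2 signal (vertical axes) of 6 carrier genes by genotype, at day 90 (circles) and day 110 (triangles), with a dotted line joining the LW and MS means, whose middle is the mid-parent value. For UCP2, UCP3 and SLC25A17 the cross means fall between those of LW and MS at both ages.

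The probes of a gene did not always tell the same story. Of the 31 genes 21 had several kept probes, and for MS against LW at day 110 the call differed between probes in 4 of them. SLC25A36 was the gene with opposite calls, and SLC25A17 had the breed difference on 1 of 2 probes. Their probes are shown because each pair reads different bases of the same gene, with shared runs of 8 bases at most in either pair.
SLC25A36 probe O13668: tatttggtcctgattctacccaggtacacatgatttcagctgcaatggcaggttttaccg
SLC25A36 probe A_72_P035091, bases 1 to 30: gacctgcatacattgcatttatttagtgga
SLC25A17 probe A_72_P137616, bases 1 to 30: ctgaggttttatgttcatccgtataggtcc
SLC25A17 probe O14653: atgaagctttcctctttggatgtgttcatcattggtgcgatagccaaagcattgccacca

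For SLC25A36 the brighter probe O13668 was higher in MS at day 110 by 0.34 (SE 0.0906, adjusted p = 0.00171), and A_72_P035091 was lower, with a difference of -1.16 (SE 0.142, adjusted p = 2.02e-09). At day 90 the differences were 0.19, not called, and -1.15, called. The mean over both probes was -0.41 at day 110, so the direction of SLC25A36 between breeds is not settled by these probes. Their age changes had the same sign and were called on O13668 only. For SLC25A17 the differences of A_72_P137616 were -0.68 and -0.94 at the 2 ages, and those of O14653 were -0.12 and -0.10 with adjusted p of 0.524 and 0.519. What sets the probes of a gene apart was not tested.

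UCP2 was lower in MS on both probes, by 1.32 and 2.18 at day 110. Of the UCP3 probes, A_72_P443167 gave differences of 1.34 at day 90 and 1.42 at day 110, both called, and O7852 gave 0.07 at day 90, not called, and 0.75 at day 110, called. The day 90 breed difference of UCP3 was thus present on 2 of 3 probes, and its day 110 difference on all 3. On O7852 the age change differed between the breeds by 0.67 (SE 0.18, adjusted p = 0.00803). The 2 SLC25A25 probes have the same 60 bases, and their day 90 breed differences of 0.97, not called, and 1.42, called, show how far a dim probe varies. All 7 SLC25A6 probes were lower in MS at day 110 under quantile normalization, with differences of -0.39 to -0.30, and 6 of them were called.

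**Figure D5:**
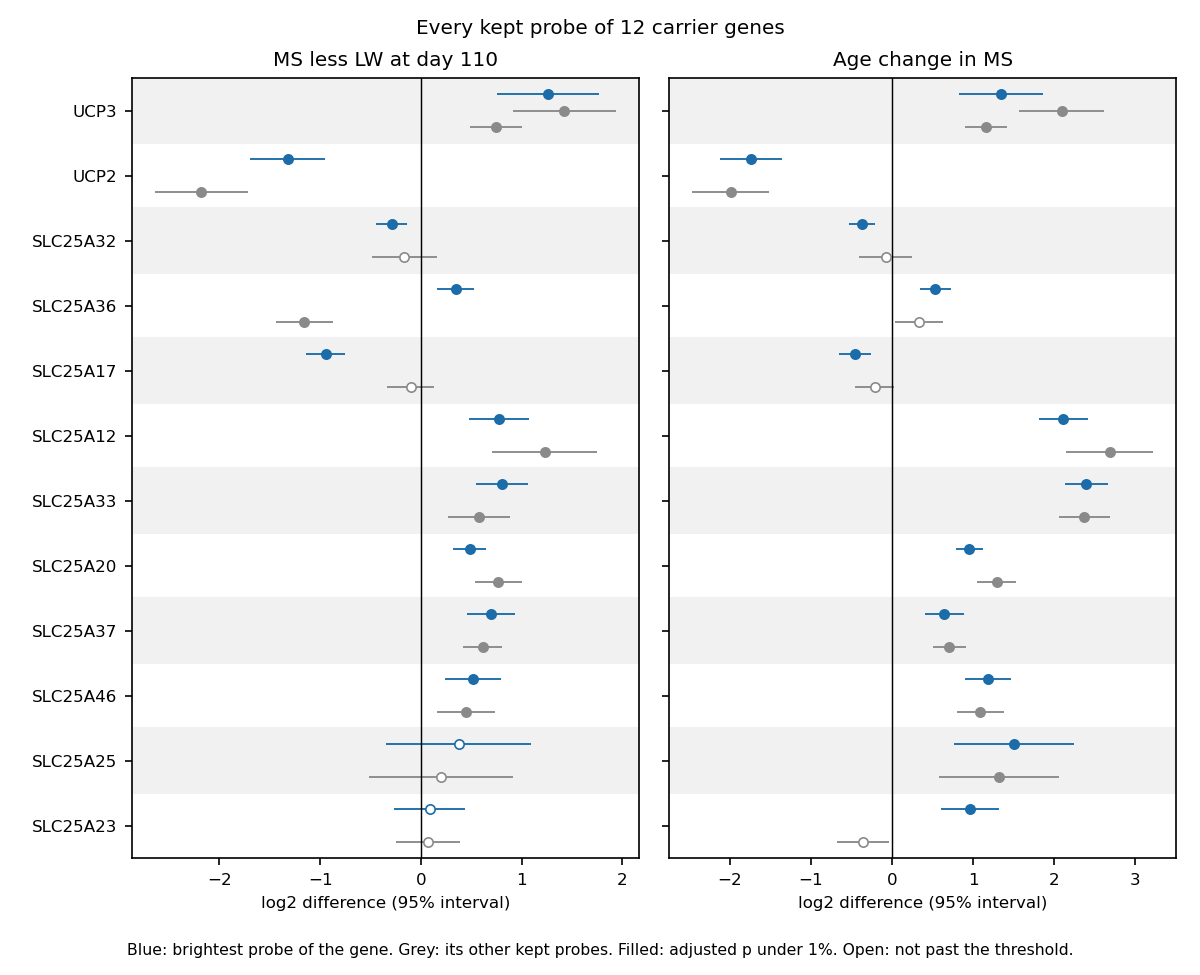
Every kept probe of 12 carrier genes (rows), with the MS less LW difference at day 110 on the left and the age change in MS on the right, in log2 signal with 95% intervals; blue marks the brightest probe, grey the others, and filled points passed an adjusted p of 1%. The SLC25A36 probes stand on opposite sides of 0 for the breed difference (0.34 and -1.16), and 1 of the 2 SLC25A17 probes stands near 0 (-0.10).

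Carriers and enzyme lists were also compared among fetuses of a group, after group means were removed, as correlations over the 61 fetuses. With the mean of the carnitine system enzymes the correlation was 0.78 for SLC25A20 and 0.66 for UCP3. With the malate-aspartate shuttle enzymes it was 0.61 for SLC25A11, 0.44 for SLC25A12 and 0.27 for SLC25A13, the carriers of that shuttle, and 0.65 for SLC25A3, which is not one of them. With the F1 subunits of ATP synthase it was 0.71 for SLC25A3 and 0.61 for SLC25A11. Over the 465 pairs of carriers the median correlation was 0.02, with a range of -0.50 to 0.65. Among the closest pairs were SLC25A20 with UCP3 (0.59), SLC25A23 with SLC25A25 (0.57) and SLC25A1 with SLC25A11 (0.57). These values are descriptions: the points share their arrays and the normalization, and may share litters.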

How the data were processed

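Total RNA of 61 fetal longissimus samples was labelled with Cy3 and hybridised to 1-colour Agilent arrays. The deposited scanner files hold spot intensity after the local background had been removed by Agilent Feature Extraction 10.10.1.1, per the file headers. A deposited table of log2 values, which the authors normalized with limma from median signals, served as an alternative. Its identifiers matched the order of spots. For a sample of kept spots, its values correlated over the arrays with the scanner's quantile-normalized median signals, at a median r of 0.999. The genome build is not given in the sources used here, so no coordinates are printed.

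Control spots and spots marked as non-uniform were left out, intensities were quantile normalized, and log2 values of spots of a probe were averaged. A probe was kept (42436 in all) if 80% or more of the arrays of any group showed it well above background. limma 3.58.1 under R 4.3.3 fitted the 8 groups and tested 11 contrasts, with Benjamini-Hochberg adjustment over all kept probes and a threshold of 1%. Figures were drawn with matplotlib 3.10.9 under Python 3.11.15. The study's model had the sow as a random term, which could not be fitted here. The fit was tested on simulated data, where 166 of 200 probes changed by 1 log2 unit, among 40448 simulated for the day 110 breed contrast, were recovered. The simulated fetuses were independent of each other and had no litters, so this test cannot show what the missing sow term does to the p-values.

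Each of the 31 genes was taken by its brightest kept probe, and 15 were summarised by group. Results that need 1 of these genes are not reported here, though counts over all 31 include it. Means of lists are means of log2 signals over the listed genes' brightest probes. The carrier genes and lists were chosen with earlier results of these data known. The alternatives were another signal column, the deposited table, normexp background correction with an offset of 50, 75th percentile scaling, other filters on dim probes, non-uniform spots kept, the slide as a block, LW and MS fetuses alone, the mean over all probes of a gene, and leaving out each day 110 MSLW fetus. A motif search in promoters was not run. The number of arrays limits the precision of all values.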

Additional observations from a re-analysis of the deposited data

Results flagged for a closer look

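In 7 of 120 groups of fetuses (15 genes in 8 groups each, 5.83%) the lowest or highest fetus stood farther from the others than Dixon's 95% critical value allows, where chance gives about 1 in 20, and 5 fetuses were behind them. Day 90 MSLW fetus 2 was the highest of its group for SLC25A13 (7.82) and SLC25A20 (11.9) and the lowest for UCP2 (10.6). SLC25A4 was lowest in day 90 LW fetus 8 (16.1) and in day 110 MSLW fetus 3 (17.7). SLC25A11 was lowest in day 110 LWMS fetus 8 (11.3), and SLC25A13 was highest in day 110 MS fetus 3 (7.88). All values are log2 signals.

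By the test of the difference itself, MS and LW fetuses did not have the same age change of SLC25A33 (1.101), SLC25A13 (0.51), SLC25A20 (0.47) and SLC25A32 (-0.42), as MS less LW on the log2 scale.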

How the results depend on the processing

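Of the 120 calls on main probes, 119 kept their direction and stayed past the threshold with the median signal, 119 with normexp, 112 with 75th percentile scaling, 117 without a filter, 114 with non-uniform spots kept, 120 with the slide as a block, 112 with the mean over all probes of a gene, and 118 to 119 without each day 110 MSLW fetus. The 120 include 4 age calls of MCART6 and 4 of SLC25A25, which the filter fixed in advance and which say nothing about stability. The deposited table kept 108 of 109, the filter on all arrays 108 of 108, and LW and MS fetuses alone 72 of 74. The count of genes whose age change differed between breeds, 4 as reported, was 7 with the median signal, 7 with normexp, 9 with 75th percentile scaling and 7 with probes well above background on all arrays. The single call between reciprocal crosses at day 90, MCART6, became 0 without a filter and with probes well above background on all arrays, where MCART6 was not tested, and ranged from 0 to 1 without each day 110 MSLW fetus. It was also 0 without day 90 MS fetus 3, the array with the fewest spots well above background, an alternative chosen after seeing the data. SLC25A6 reversed with 75th percentile scaling in the MS age change (0.08) and in MS against LW at day 110 (0.04), and with non-uniform spots kept in the MSLW age change (0.08), where its other age calls (adjusted p = 0.259 in LW, 0.0751 in MS and 0.118 in LWMS) and its day 110 breed call (0.467) were lost. With the mean of a gene's probes SLC25A36 reversed for MS against LW at day 110 (-0.41), and SLC25A32 lost that call (0.0572) and its MS age call (0.0446). With the same mean the age calls in MS and LWMS were lost for SLC25A23 (0.0446 and 0.277) and for SLC25A43 (0.0319 and 0.0451). Without a filter and with LW and MS fetuses alone, SLC25A32 lost the difference in age change between breeds (adjusted p = 0.0104 and 0.0122), as it did with the mean of its probes (0.0498) and without day 90 MS fetus 3 (0.0109), and SLC25A20 lost it with LW and MS fetuses alone (0.0131). SLC25A13 lost it with the median signal (0.0143) and with the deposited table (0.0146). The median over all kept probes of the difference in age change moved from 0.00 to 0.07 with 75th percentile scaling. The cause of these moves was not tested. Signal over background limits MCART6 and SLC25A25. No paired analysis was possible because the replicate numbers follow the order of the samples and pair no fetuses.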
